A study of Mus musculus with 6 samples.

Results

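The 40 genes described here sense foreign nucleic acids, carry the interferon signal or are switched on by it. They were chosen by symbol from a fixed list, with no measured value in the rule but with earlier results of these data known. All 40 matched an Ensembl gene among the 54146 genes of the count tables. They fall into 8 genes of nucleic acid sensing, 6 of the interferon receptor and its transcription factors, 23 induced effectors and 3 of antigen processing. Mouse cortical cells were electroporated in utero with plasmid DNA at E14.5 (embryonic day) and sorted for green fluorescent protein (GFP) 24 hours later, at E15.5. The Mir group received a plasmid that drives the precursor of the microRNA miR-3607-5p from a U6 promoter, and the Scr group received the same vector with a scrambled hairpin. Both groups were wild type and both also received a pCAG-GFP plasmid, at 0.7 µg/µl against 1 µg/µl of the hairpin plasmid. Each group had 3 libraries, each from a separate pool of cells of 2 embryos, and every p-value rests on the spread between pools. No library came from cells without plasmid or hairpin, and the levels below therefore cannot be told apart from a response to the delivery itself. On the strain the labels conflict, with ICR in the treatment protocol and C57BL/6 in the sample characteristics.

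Cells detect RNA in the cytosol with the helicases RIG-I and MDA5 and DNA with cGAS, and both routes end in the kinase TBK1 and the factor IRF3, which start the interferon genes. Secreted type I interferon binds the receptor IFNAR1-IFNAR2, and the kinases JAK1 and TYK2 then activate a complex that holds STAT2 and IRF9. This complex binds the interferon-stimulated response element (ISRE) in the promoters of effector genes, which block viral entry, translation and replication. In the embryonic cortex these genes are known chiefly from infection and from inherited interferon disorders.

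Promoters from 250 bases before to 50 bases after the start site were found in RefSeq (GRCm38.p6) for 30 of the 40 genes. They were searched on both strands for the ISRE letters GAAANNGAAA, and for the letters TTCNNNGAA of the gamma-activated site (GAS), which read the same on both strands. The ISRE letters stood in the promoters of 15 of these 30 genes (50.0%), against 3.99% of the 27025 genes with a promoter in the table. The GAS letters stood in 9 of the 30 (30.0%), against 9.55% of all genes, and overlapped an ISRE match in Ifitm3 and Bst2. For each role the promoter of the gene with the highest length-scaled level among those with the ISRE letters is shown, on the strand of the gene, with the ISRE letters in capitals. TTTCNNTTTC is the same element on the other strand. The 4 regions are chr4:40239776-40240075 on the minus strand for Ddx58, chr10:128270248-128270547 on the plus strand for Stat2, chr7:141010695-141010994 on the minus strand for Ifitm3 and chr2:122147437-122147736 on the plus strand for B2m.
Ddx58: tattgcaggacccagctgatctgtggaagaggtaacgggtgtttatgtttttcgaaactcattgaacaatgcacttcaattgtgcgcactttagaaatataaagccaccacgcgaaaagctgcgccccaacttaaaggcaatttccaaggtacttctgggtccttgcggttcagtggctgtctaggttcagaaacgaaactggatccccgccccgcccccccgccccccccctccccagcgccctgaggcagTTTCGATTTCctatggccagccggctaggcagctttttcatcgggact
Stat2: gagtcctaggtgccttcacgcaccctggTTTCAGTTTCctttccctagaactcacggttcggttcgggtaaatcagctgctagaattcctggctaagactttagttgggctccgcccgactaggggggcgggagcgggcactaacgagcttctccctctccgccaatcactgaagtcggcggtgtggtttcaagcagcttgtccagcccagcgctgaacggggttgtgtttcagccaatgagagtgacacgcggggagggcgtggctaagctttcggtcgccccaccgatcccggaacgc
Ifitm3: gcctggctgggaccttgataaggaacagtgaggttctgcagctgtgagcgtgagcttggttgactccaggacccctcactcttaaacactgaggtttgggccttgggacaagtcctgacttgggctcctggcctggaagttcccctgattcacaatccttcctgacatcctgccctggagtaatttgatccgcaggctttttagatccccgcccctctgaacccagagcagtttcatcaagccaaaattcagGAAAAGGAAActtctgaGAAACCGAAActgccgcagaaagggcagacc
B2m: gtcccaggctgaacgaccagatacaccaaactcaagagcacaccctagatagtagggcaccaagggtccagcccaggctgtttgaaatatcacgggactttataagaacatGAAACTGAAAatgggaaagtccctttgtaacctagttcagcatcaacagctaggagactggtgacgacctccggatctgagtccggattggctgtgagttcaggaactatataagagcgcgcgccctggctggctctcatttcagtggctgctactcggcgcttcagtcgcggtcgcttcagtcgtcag

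The element also differed in number between promoters, and windows of 30 bases around it are given for 6 further genes whose libraries are described below. Isg15 holds 3 overlapping matches, Bst2 and Oas1a hold a pair of overlapping matches each, and a single match is shown for Ifit1, Rsad2 and Psme1. Ifit1 holds a further match, at -85 to -76 from the start site, that runs past the end of its window. The windows lie at chr4:156200871-156200900 (Isg15, minus strand), chr8:71537580-71537609 (Bst2, minus), chr5:120907523-120907552 (Oas1a, minus), chr19:34640775-34640804 (Ifit1, plus), chr12:26456553-26456582 (Rsad2, minus) and chr14:55578493-55578522 (Psme1, plus), again as RefSeq gives them on GRCm38.p6 and with the ISRE letters in capitals.
Isg15: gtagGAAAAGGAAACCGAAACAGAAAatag
Bst2: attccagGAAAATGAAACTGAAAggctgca
Oas1a: ttctcggGAAATGGAAACTGAAAatctact
Ifit1: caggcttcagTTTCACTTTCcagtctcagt
Rsad2: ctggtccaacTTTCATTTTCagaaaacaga
Psme1: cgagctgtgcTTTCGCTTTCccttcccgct

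**Figure D1:**
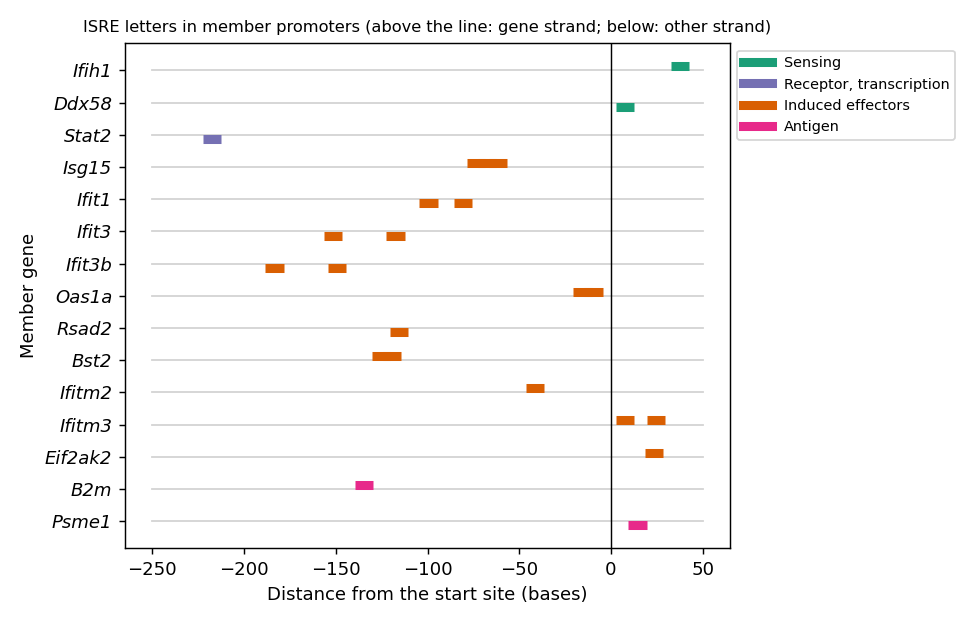
Positions of the ISRE letters GAAANNGAAA in the promoters of the 15 genes that hold them. The horizontal axis is the distance from the RefSeq start site in bases, each grey line is a promoter from 250 bases before to 50 bases after it, and coloured marks are matches, above the line on the strand of the gene and below it on the other strand. The matches lie before the start site in most promoters and after it in Ifih1, Ddx58, Ifitm3, Eif2ak2 and Psme1.

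Libraries held 15847663, 15674262 and 14671557 counts in genes for Mir 1, Mir 2 and Mir 3, and 12724511, 13960806 and 16684038 for Scr 1, Scr 2 and Scr 3. Below, 3 values of a group are always those of its libraries 1, 2 and 3. Markers of radial glia, intermediate progenitors and cortical neurons were all detected in every library, and their sums were 1556 to 2311 CPM (counts relative to library size), 1917 to 2691 and 3984 to 4379 CPM in Mir, against 1222 to 1821, 1199 to 1861 and 4602 to 5458 CPM in Scr. Scr 2 and Mir 3 stood apart from the other libraries in earlier results of these data, and values without them are given where they bear on a result. Markers of other cell types differed between libraries too and stand with the library pattern below.

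No gene of the 40 passed an adjusted p of 0.05 between Mir and Scr, in edgeR, DESeq2 or limma-voom, while the induced genes differed several-fold between libraries of the same group. The filter on low counts kept 38 of the 40, all but Zbp1 and Oas2. Among all 16897 genes tested, edgeR's quasi-likelihood test called 0% higher and 0.00592% lower in Mir, and DESeq2 called 1.46% higher and 1.97% lower. At an unadjusted p under 0.05, edgeR gave 0 of the 38 genes higher and 1 lower, Ifnar2, against 6.57% and 7.93% of all genes. The 3 Mir libraries lay all above the 3 Scr libraries for 0 of the 38 genes, against 9.72% of all genes, and all below for 2, Dhx58 and Ifnar2, against 10.3%. The mean was higher in Mir for 25 genes and lower for 13. The median log2 fold change (Mir over Scr) of the 38 was 0.21, against -0.01 for all genes, with values from -0.82 for Dhx58 to 0.83 for B2m. Without Scr 2 and Mir 3 the median was 0.01, and without Scr 3 it was 0.85. In bulk samples, fewer cells of a type and less RNA per cell cannot be told apart.

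**Figure D2:**
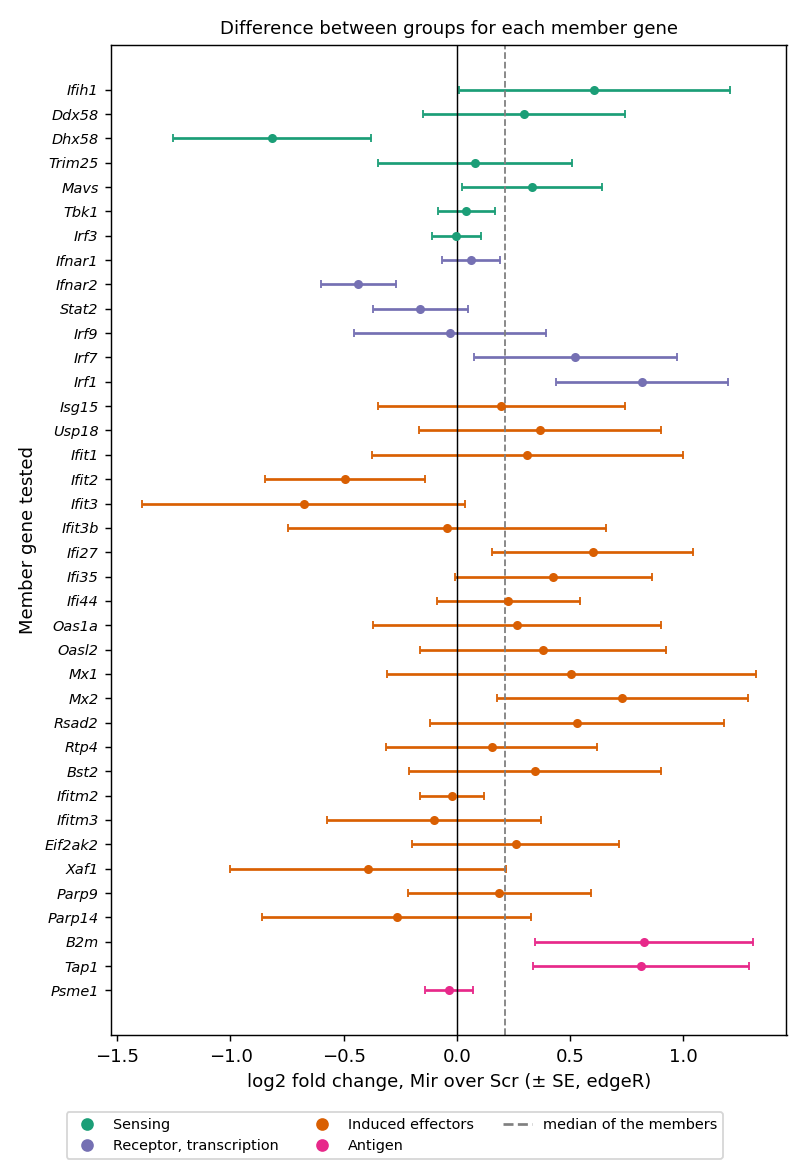
The log2 fold change of Mir over Scr (horizontal axis) for each of the 38 genes tested, with its standard error from edgeR and coloured by role. The dashed line is the median of the 38 genes, 0.21, and the values run from -0.82 for Dhx58 to 0.83 for B2m.

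Tbk1 and Irf3 had the most counts of the sensing genes. Tbk1, the kinase that activates IRF3, had 1126, 1170 and 1140 counts in Mir, against 1097, 853 and 1165 in Scr. Irf3, the factor that starts the interferon-beta gene, had 629, 606 and 561 counts in Mir, against 534, 556 and 585 in Scr. All Mir values of both genes lay within the Scr range once scaled to CPM, and the log2 fold changes were 0.04 ± 0.13 (SE) for Tbk1 and -0.003 ± 0.11 for Irf3 (edgeR adjusted p = 0.913 and 0.993). Mavs, the mitochondrial adaptor through which RIG-I and MDA5 signal, had 67, 102 and 134 counts in Mir, against 79, 68 and 78 in Scr. Its groups overlapped, with a log2 fold change of 0.33 ± 0.31 (adjusted p = 0.658).

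The RNA sensors and Trim25 differed more between the Scr libraries. Ddx58 encodes RIG-I, which binds short RNA with a 5′ triphosphate end, and had 191, 352 and 336 counts in Mir, against 146, 115 and 446 in Scr. Trim25, a ubiquitin ligase of the RIG-I route, had 189, 276 and 258 counts in Mir, against 107, 136 and 436 in Scr. In both genes Scr 3 was the highest of the 6 libraries and all Mir libraries lay within the Scr range. Their log2 fold changes were 0.30 ± 0.45 and 0.08 ± 0.43 (adjusted p = 0.798 and 0.952). Ifih1, encoding MDA5, the sensor of long double-stranded RNA, had another order, with 104, 104 and 39 counts in Mir, against 12, 64 and 80 in Scr. Scr 1 was its lowest library and Mir 3 the next lowest, and the log2 fold change was 0.61 ± 0.60 (adjusted p = 0.680).

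Dhx58 was the sensing gene whose groups did not overlap. It encodes LGP2, a helicase related to RIG-I that modulates its signalling, and had 7, 14 and 18 counts in Mir, against 20, 21 and 24 in Scr. Its level was 0.854 ± 0.390 CPM in Mir and 1.51 ± 0.06 CPM in Scr (SD, n = 3 each), with a log2 fold change of -0.82 ± 0.44, which did not pass the test (edgeR adjusted p = 0.432). An antisense gene, Dhx58os, shares 4.31% of its exon bases. Zbp1, which binds nucleic acids in the Z form, stayed under the filter with 6, 14 and 6 counts in Mir, against 1, 5 and 19 in Scr.

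The lowest p of the 38 genes tested was that of a receptor gene. Ifnar2 (ENSMUSG00000022971, GRCm38 chromosome 16, 91372783 to 91405589, plus strand) encodes the high-affinity chain of the type I interferon receptor and had 330, 361 and 372 counts in Mir, against 358, 526 and 460 in Scr. Scaled to CPM, these were 21.0, 23.1 and 25.2 in Mir, against 27.9, 38.1 and 27.7 in Scr, so that every Mir library lay below every Scr library. The log2 fold change was -0.43 ± 0.16, with an unadjusted p of 0.0312 and an adjusted p of 0.304 in edgeR and an adjusted p of 0.195 in DESeq2. Without Scr 2, its highest library, it was -0.27 (adjusted p = 0.493). The gene Gm21970 shares 9.46% of its exon bases. Ifnar1, the partner chain, had 1147, 1253 and 1044 counts in Mir, against 933, 1133 and 993 in Scr. The Mir libraries of Ifnar1 lay within the Scr range, and its log2 fold change was 0.06 ± 0.13 (adjusted p = 0.860).

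Of the transcription factors, Stat2 and Irf9 showed different library patterns although both encode subunits of the complex that binds the ISRE. Stat2, whose promoter sequence is given above, had 265, 342 and 305 counts in Mir, against 229, 396 and 331 in Scr, with Scr 2 the highest library. Irf9 had 557, 969 and 829 counts in Mir, against 436, 428 and 1519 in Scr, with Scr 3 far the highest. The log2 fold changes were -0.16 ± 0.21 for Stat2 and -0.03 ± 0.42 for Irf9 (adjusted p = 0.762 and 0.981). Irf7, which amplifies interferon-alpha production and is itself induced, had 100, 203 and 182 counts in Mir, against 53, 76 and 204 in Scr. Its groups overlapped through Scr 3 (log2 fold change 0.52 ± 0.45, adjusted p = 0.627). Irf1, a factor induced by interferon-gamma, had 101, 212 and 84 counts in Mir, against 56, 54 and 104 in Scr. Mir 2 was its highest library, and the log2 fold change of 0.82 ± 0.38 did not pass the test (edgeR adjusted p = 0.377). Without Mir 2 it was 0.32.

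The 23 effectors carried the widest differences between libraries, and the most abundant of them by counts was Usp18, the protease that removes ISG15 from proteins and damps signalling at IFNAR2. Usp18 (ENSMUSG00000030107, GRCm38 chromosome 6, 121245906 to 121270917, plus strand) had 941, 1808 and 1303 counts in Mir, against 494, 432 and 2228 in Scr. Its level was 87.9 ± 27.8 CPM in Mir and 68.0 ± 57.4 CPM in Scr (SD, n = 3 each). Scr 3 lay above all Mir libraries and Scr 1 and Scr 2 below them, and the highest and lowest Scr libraries differed 4.29-fold. The log2 fold change was 0.37 ± 0.53 (edgeR adjusted p = 0.790), against 0.02 without Scr 2 and 1.34 without Scr 3. Isg15, the ubiquitin-like protein that Usp18 removes, had 180, 321 and 428 counts in Mir, against 109, 150 and 558 in Scr. Again Scr 3 was the highest library and Scr 1 the lowest, 3.96-fold apart, with a log2 fold change of 0.20 ± 0.55 (adjusted p = 0.903).

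**Figure D3:**
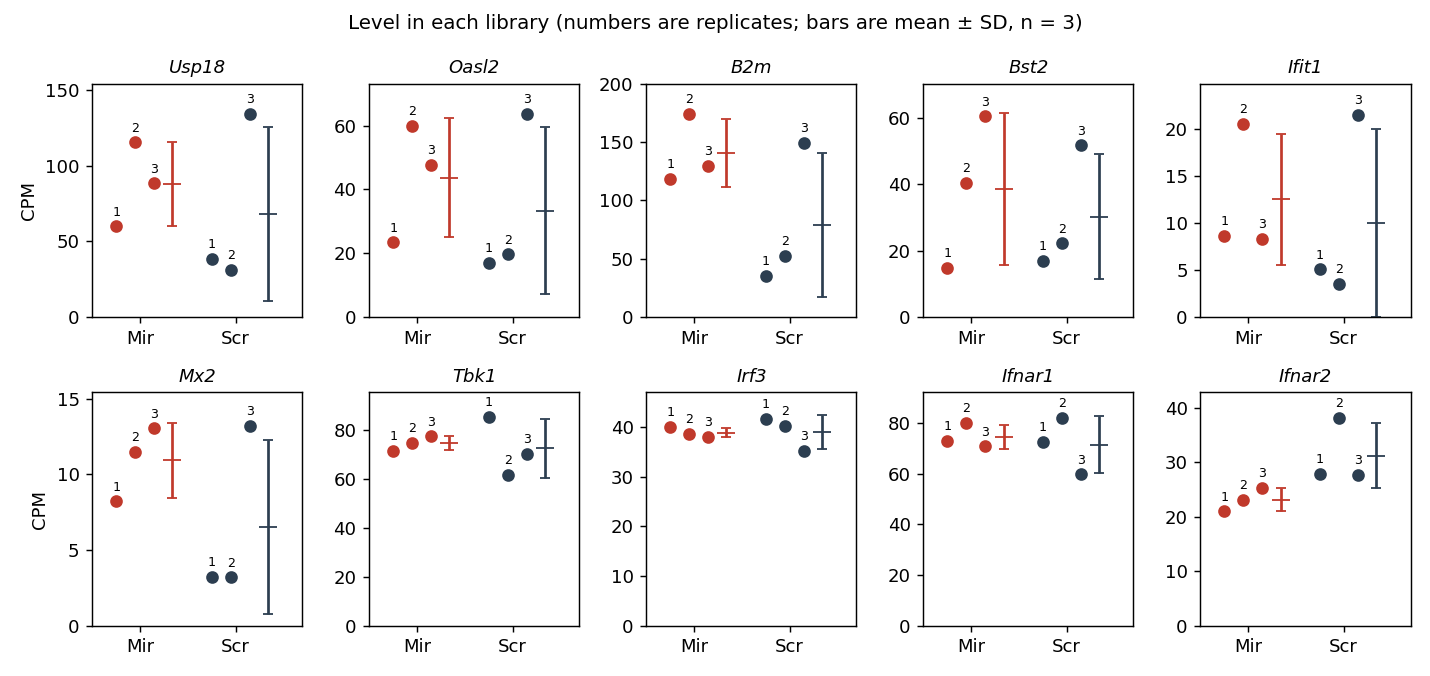
CPM in each library for 10 of the genes, with the 3 Mir libraries left of the 3 Scr libraries, replicate numbers beside the points and bars for the mean ± SD (n = 3). Usp18, Oasl2, B2m, Bst2, Ifit1 and Mx2 have Scr 3 well above Scr 1 and Scr 2, while Tbk1, Irf3 and Ifnar1 are even and Ifnar2 has all Mir points below the Scr points.

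The Ifit genes, a cluster of induced genes on chromosome 19, did not share a single order. Ifit1 had 136, 322 and 122 counts in Mir, against 65, 48 and 357 in Scr, and its Scr libraries differed 6.19-fold. Ifit2 had 182, 103 and 245 counts in Mir, against 213, 161 and 343 in Scr. Mir 2, the highest Mir library of Ifit1, was the lowest library of Ifit2, while Scr 3 was the highest library of both. Their log2 fold changes were 0.31 ± 0.69 and -0.49 ± 0.35 (adjusted p = 0.872 and 0.552). Ifit3 had 11, 25 and 31 counts in Mir, against 6, 35 and 66 in Scr (log2 fold change -0.68 ± 0.71, adjusted p = 0.702). Its near-identical neighbour Ifit3b stayed between 0.156 and 1.28 CPM in all libraries. As 51.2% of the 50-base stretches of Ifit3 also occur in other genes, above all in Ifit3b, the split of reads between them is uncertain.

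The Oas genes make the oligoadenylates that activate RNase L. Oas1a had 25, 103 and 83 counts in Mir, against 25, 33 and 117 in Scr, with overlapping groups (log2 fold change 0.27 ± 0.64, adjusted p = 0.883). This value is uncertain, since 57.6% of its 50-base stretches also occur in Oas1g or Oas1b. Oasl2, an Oas-like gene, was far better measured, with 368, 938 and 704 counts in Mir, against 216, 271 and 1058 in Scr, and its Mir libraries lay within the Scr range (0.38 ± 0.54, adjusted p = 0.785). Oas2 went the other way at very low counts. It had 0, 0 and 0 counts in Mir, against 8, 4 and 9 in Scr. Set against a floor of 3 counts over the pooled Mir libraries, the pooled Scr level was 7.46-fold higher. That ratio leaves out the error of the Scr counts and the spread between libraries. The filter kept it out of the test, and with no filter on low counts edgeR gave it an adjusted p of 0.120.

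Among the proteins that block replication, Mx2 had 129, 180 and 192 counts in Mir, against 41, 44 and 219 in Scr. It encodes a dynamin-like GTPase and is annotated as a polymorphic pseudogene in GENCODE M21. Its Mir libraries lay between Scr 3 and the other Scr libraries, with a log2 fold change of 0.73 ± 0.55 (adjusted p = 0.580). Its neighbour Mx1 reached 1.60 CPM at most in Mir and 1.57 CPM in Scr. Rsad2, which encodes viperin, had 75, 194 and 110 counts in Mir, against 20, 59 and 184 in Scr. The highest Scr library of Rsad2 was 7.11-fold above the lowest, and the log2 fold change was 0.53 ± 0.65 (adjusted p = 0.745). Eif2ak2, encoding the RNA-activated kinase PKR, had 167, 261 and 164 counts in Mir, against 106, 69 and 311 in Scr, with all Mir libraries inside the Scr range (0.26 ± 0.46, adjusted p = 0.833).

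The membrane proteins differed among themselves. Bst2, encoding tetherin, which holds budding virus at the cell surface, had 232, 633 and 890 counts in Mir, against 215, 306 and 858 in Scr. Ifitm3, which blocks fusion of virus in endosomes, had 289, 639 and 687 counts in Mir, against 223, 485 and 1007 in Scr. Mir 1 and Scr 1 were the lowest libraries of both, and their log2 fold changes were 0.35 ± 0.56 and -0.10 ± 0.47 (adjusted p = 0.814 and 0.944). Ifitm2, a close relative whose promoter also holds the ISRE letters, had 325, 388 and 288 counts in Mir, against 274, 303 and 377 in Scr, and its Scr libraries differed only 1.06-fold. Its log2 fold change was -0.02 ± 0.14 (adjusted p = 0.958). Gm45717 shares 40.9% of the exon bases of Ifitm2, so its counts are uncertain.

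The remaining effectors repeated the order with Scr 3 at the top of its group. Rtp4, an interferon-induced chaperone of membrane receptors, had 344, 702 and 587 counts in Mir, against 241, 268 and 951 in Scr. Ifi27, a small induced membrane protein, had 373, 705 and 510 counts in Mir, against 191, 179 and 666 in Scr. Parp9, an ADP-ribosyltransferase family member, had 361, 450 and 348 counts in Mir, against 265, 133 and 593 in Scr. In all 3 of these genes Scr 3 was at least 3.05-fold above the lowest Scr library and the Mir libraries lay between them, apart from Mir 2 of Ifi27, which exceeded Scr 3. The log2 fold changes were 0.15 ± 0.47, 0.60 ± 0.44 and 0.19 ± 0.40 (adjusted p = 0.913, 0.566 and 0.867).

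Ifi44 had 141, 229 and 204 counts in Mir, against 83, 159 and 231 in Scr. Ifi35, an induced leucine-zipper protein, had 71, 145 and 148 counts in Mir, against 42, 73 and 151 in Scr. Xaf1, a binder of the caspase inhibitor XIAP, had 12, 47 and 41 counts in Mir, against 19, 30 and 81 in Scr. All 3 overlapped between groups, with log2 fold changes of 0.23 ± 0.32, 0.43 ± 0.43 and -0.39 ± 0.61 (adjusted p = 0.781, 0.691 and 0.806). Parp14, a partner of Parp9, stayed between 0.318 and 1.45 CPM in all libraries. Overlaps leave part of these counts uncertain, since the antisense gene Gm11626 shares 16.8% of the exon bases of Ifi35, Gm45338 shares 13.9% of those of Rtp4, and the antisense gene Dtx3l shares 9.40% of those of Parp9.

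Antigen processing held the gene of highest length-scaled level. B2m (ENSMUSG00000060802, GRCm38 chromosome 2, 122147686 to 122153083, plus strand) encodes the light chain of class I antigen-presenting molecules and had 1862, 2725 and 1904 counts in Mir, against 450, 725 and 2483 in Scr. Its level was 141 ± 30 CPM in Mir and 79.0 ± 61.7 CPM in Scr (SD, n = 3 each). Scr 3 lay above Mir 1 and Mir 3, so that the groups overlapped, and the log2 fold change of 0.83 ± 0.48 did not pass the test (edgeR adjusted p = 0.475). Tap1, a subunit of the transporter that brings peptides to these molecules, had 49, 49 and 93 counts in Mir, against 22, 20 and 65 in Scr (0.81 ± 0.48, adjusted p = 0.476). Scr 3 again exceeded Mir 1 and Mir 2. Psme1, an activator of the proteasome, was flat by comparison, with 1964, 2093 and 2006 counts in Mir, against 1612, 1734 and 2544 in Scr and a log2 fold change of -0.04 ± 0.11 (adjusted p = 0.912).

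Scaled by exon length (RPKM, CPM per kb of exon), B2m was the highest of the 40 genes, at 163 in Mir and 91.9 in Scr. Psme1 followed at 59.6 in Mir and 61.0 in Scr, Ifitm3 at 52.0 and 55.6, Bst2 at 42.7 and 33.4, Ifitm2 at 33.1 and 33.6, and Usp18 at 31.5 and 24.4, in the same order of groups. The sensors Ddx58 and Ifih1 lay far lower than these genes on this scale. So did some effectors, such as Rsad2 at 1.89 in Mir and 1.30 in Scr. Ddx58 had an RPKM of 2.72 in Mir and 2.20 in Scr, and Ifih1 had 0.649 in Mir and 0.424 in Scr.

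**Figure D4:**
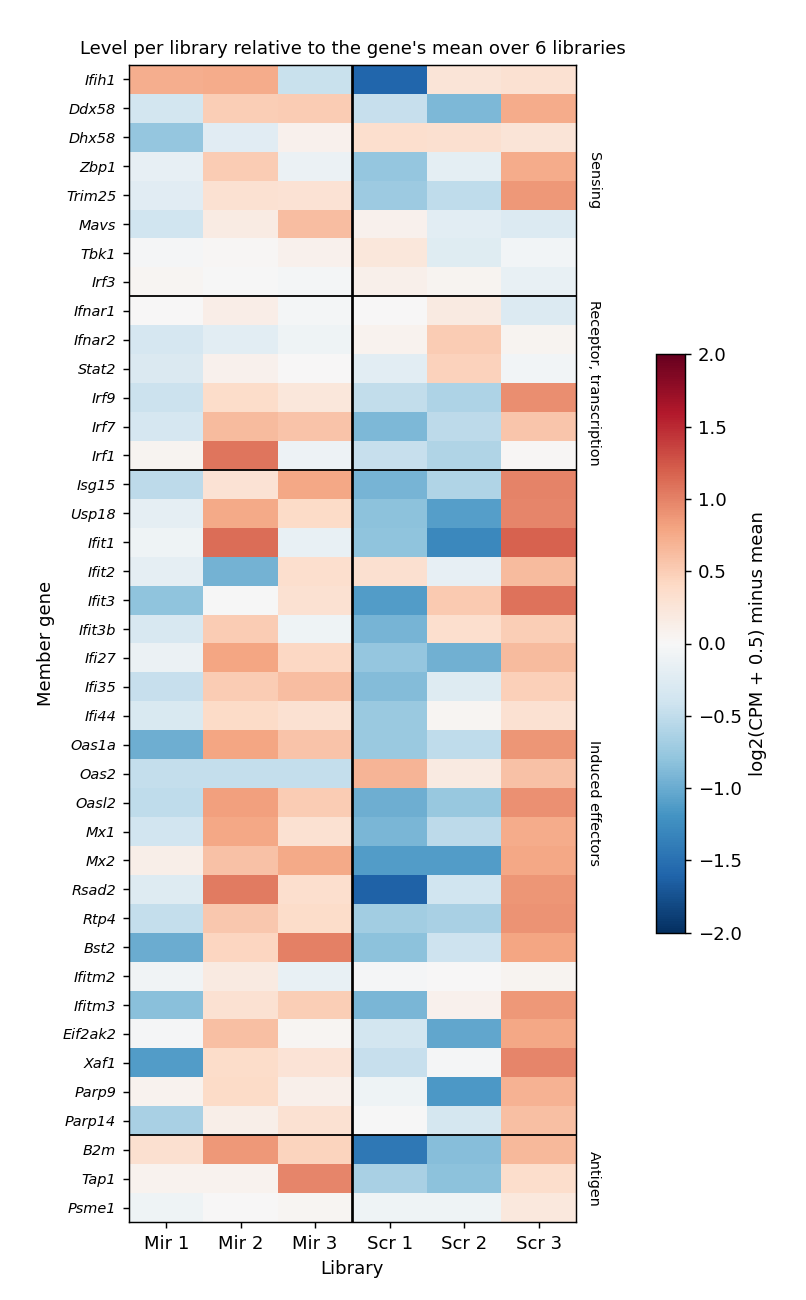
Level of each of the 40 genes in each library, as log2 (CPM + 0.5) minus the mean of the gene over the 6 libraries, with the 3 Mir libraries left of the 3 Scr libraries and genes grouped by role. Red is above and blue below the gene's mean. Most induced effectors are red in Mir 2, Mir 3 and Scr 3 and blue in Mir 1, Scr 1 and Scr 2, while Tbk1, Irf3, Ifnar1, Ifitm2 and Psme1 stay near white.

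Scr 3 was the highest Scr library and Mir 1 the lowest Mir library for most of the 38 genes tested. The median level relative to each gene's own mean was -0.29, 0.38 and 0.30 on the log2 scale in Mir 1, 2 and 3, against -0.71, -0.41 and 0.64 in Scr 1, 2 and 3, while over all genes it was at most 0.01 in every library. Scr 3 was the highest Scr library for 31 of the 38 genes (81.6%), against 27.7% of all genes. Mir 1 was the lowest Mir library for 31 of the 38 as well, against 31.2% of all genes. The 22 effectors tested showed it most, with medians of -0.35, 0.50 and 0.34 in Mir, against -0.81, -0.46 and 0.78 in Scr. The 7 sensing genes tested spanned less, from -0.23 to 0.16 in Mir and from -0.21 to 0.26 in Scr.

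The spread within groups was therefore wider than for most genes. The range over the 3 libraries had a median of 0.93 on the log2 scale in Mir and 1.57 in Scr for the 38 genes, against 0.35 in Mir and 0.39 in Scr for all genes, which were not matched for level. A range over 1 was reached by 16 of the 38 in Mir and 26 in Scr (42.1% and 68.4%), against 11.6% and 12.8% of all genes. The 15 genes with the ISRE letters in their promoter had a median range of 1.12 in Mir and 1.78 in Scr. The 15 genes with a promoter but without these letters had 0.91 in Mir and 1.05 in Scr. These sets differed in role too, as effectors made up most of the first and not of the second, which held Tbk1, Irf3 and Ifnar1. Genes without a promoter in RefSeq, such as Usp18 and Mx2, were in neither. The part of role in this difference was not tested. Ifitm2 and Psme1 hold the letters and were among the evenest of all.

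Markers of other cell types did not follow this order as a whole. The 12 microglia and macrophage markers summed to 30.8, 26.2 and 88.0 CPM in Mir, against 41.5, 92.9 and 123.5 CPM in Scr, with 9 of 12 at 0 in Mir 1 and 3 at 0 in Mir 2, and all detected elsewhere. In Mir 2, which had high levels of the induced genes, P2ry12, Trem2 and Ptprc were at 0 and Cx3cr1 had 3 counts, while in Scr 3 Cx3cr1 had 148 counts. The 10 endothelial markers summed to 24.9, 29.1 and 77.8 CPM in Mir, against 116.6, 263.8 and 39.7 CPM in Scr. Their sum was thus lowest of the Scr group in Scr 3. Of these 10 markers, 6 were at 0 in Mir 1 and 5 in Mir 2, with all detected elsewhere. Cldn5, Pecam1, Cdh5 and Emcn were at 0 in both Mir 1 and Mir 2. Slco1c1 alone gave 19.97 CPM in Mir 1 and 24.4 CPM in Mir 2, against 23.54 CPM in Scr 3. The 6 meningeal markers summed to 2.04, 205 and 10.7 CPM in Mir, against 14.7, 25.6 and 11.3 CPM in Scr, with Mir 2 the highest. The 6 pericyte markers summed to 6.68, 30.9 and 46.6 CPM in Mir, against 73.1, 136 and 29.9 CPM in Scr. Inhibitory neuron markers (6 genes) summed to 127, 108 and 301 CPM in Mir, against 239, 910 and 323 CPM in Scr, and erythroid markers (6 genes) to 53.2, 1.60 and 575 CPM in Mir, against 242, 858 and 565 CPM in Scr. Scr 3 was also the deepest library and Scr 1 the shallowest, while Mir 1, the lowest Mir library for most members, was the deepest of its group. The part of these cell types and of depth in the results was not tested.

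**Figure D5:**
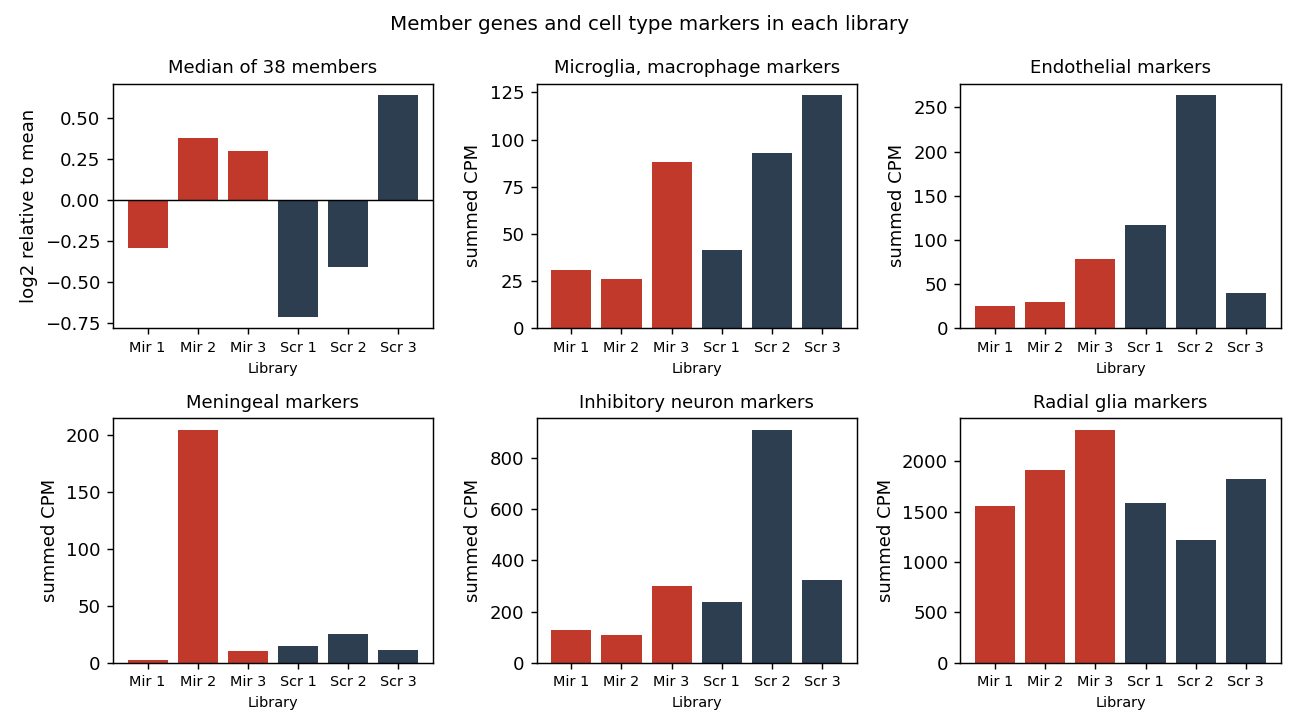
The median level of the 38 genes tested in each library (log2, relative to each gene's mean over the 6 libraries) beside the summed CPM of markers of 5 cell types, with Mir in red left of Scr in dark blue. The gene median is highest in Scr 3, at 0.64, and lowest in Scr 1, at -0.71. Microglial markers are highest in Scr 3 too but lowest in Mir 2. Endothelial and inhibitory neuron markers are highest in Scr 2 and meningeal markers in Mir 2.

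The comparison of the groups rested on Scr 3 more than on any other library. As Scr 3 was the highest Scr library for 31 of the 38 genes, leaving it out must raise their fold changes. The fit without it is therefore no separate test of a difference between Mir and Scr. Without Scr 3, 15 members had an unadjusted p under 0.05 on the higher side, against 5.29% of all genes in that fit, and 1 on the lower, against 6.76%. The median log2 fold change was then 0.85, and edgeR still called 0 members at an adjusted p of 0.05. Without Scr 2, whose levels were low, the counts were 0 higher and 0 lower, against 6.73% and 5.47% of all genes, and the median was 0.02. Without Mir 1 the median was 0.41, and without Mir 2 it was 0.03. The 0 calls at an adjusted p of 0.05 held in each of these fits.

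Genes of the pathway outside the 40 gave the same absence of calls in edgeR. Of the 21 interferon ligand genes, 20 had 0 counts in all 6 libraries, and Ifnk had 1, 4 and 1 counts in Mir, against 0, 0 and 0 in Scr. Over the 89562837 counts of the 6 libraries, a count of 0 allows a level of up to 0.0335 CPM, for counting error only. These counts and this limit cover reads with 1 place in the genome only, and 39.3 to 44.4% of the listed reads aligned to more than 1. Of the 21 ligand genes, 18 share 50-base stretches of their exons with other genes, with a median of 25.8% over the 21, so reads of the similar Ifna genes may be missing here. The other 5 lists held 106 genes, of which 88 were tested, and 0 passed an adjusted p of 0.05 in edgeR or limma-voom. At an unadjusted p under 0.05, 9 were higher and 3 lower in Mir, against 6.57% and 7.93% of all genes, and DESeq2 called Nlrx1 higher and Ifngr2 lower after adjustment. The median log2 fold change of the 88 was 0.08, with 8 genes whose Mir libraries lay all above and 7 all below the Scr libraries, against 9.72% and 10.3% of all genes.

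DNA sensing had 8 genes tested of 13, with 0 higher and 1 lower at an unadjusted p under 0.05. The gene was Tmem173, encoding the adaptor STING, with 8, 6 and 15 counts in Mir, against 16, 72 and 31 in Scr. All Mir libraries lay below all Scr libraries, Scr 2 was by far the highest, and the log2 fold change was -2.12 ± 0.65 (edgeR adjusted p = 0.249). Without Scr 2 it was -1.29. Cgas, whose enzyme makes the messenger that STING binds, had 13, 10 and 18 counts in Mir, against 2, 9 and 12 in Scr (0.78 ± 0.59, adjusted p = 0.579). Aim2, a cytosolic DNA receptor, and Dnase2a, a lysosomal nuclease, had log2 fold changes of 0.58 ± 0.43 and -0.34 ± 0.21 (adjusted p = 0.566 and 0.494).

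RNA sensing had 16 genes tested of 18, with 1 higher and 0 lower. Nlrx1, a mitochondrial protein of the NLR family, had 95, 111 and 145 counts in Mir, against 54, 45 and 63 in Scr. Every Mir library lay above every Scr library, and the log2 fold change was 1.03 ± 0.26, with an adjusted p of 0.213 in edgeR and 0.0454 in DESeq2. Azi2 and Tbkbp1, which bind TBK1, had log2 fold changes of 0.37 ± 0.16 and -0.56 ± 0.25 (edgeR adjusted p = 0.351 and 0.365). Tlr3, the endosomal receptor of double-stranded RNA, had 3, 7 and 23 counts in Mir, against 17, 17 and 31 in Scr (-1.02 ± 0.69, adjusted p = 0.531).

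Receptor signalling had 14 genes tested of 15, with 1 higher and 2 lower. Ifngr2, a chain of the interferon-gamma receptor, had 1260, 1240 and 1594 counts in Mir, against 1605, 2839 and 2339 in Scr, with no overlap once scaled to CPM. Its log2 fold change was -0.82 ± 0.21, with an adjusted p of 0.213 in edgeR and 0.00831 in DESeq2. Without Scr 2 the log2 fold change was -0.58. Il10rb, a shared chain of the interleukin-10 and type III interferon receptors, had a log2 fold change of -1.07 ± 0.44 (edgeR adjusted p = 0.327), and Socs3, a feedback inhibitor, one of 0.56 ± 0.17 (adjusted p = 0.249). Jak1, a kinase gene of the receptors, overlapped between groups, at 0.01 ± 0.14 (adjusted p = 0.974). Tyk2, its partner kinase, had 17.9, 17.1 and 15.2 CPM in Mir, against 18.2, 20.6 and 18.2 CPM in Scr. Every Mir library of Tyk2 lay below every Scr library, at -0.18 ± 0.14 (adjusted p = 0.588).

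Of 45 other interferon-induced genes 35 were tested, with 3 higher and 0 lower at an unadjusted p under 0.05. They were Pnpt1, a mitochondrial exonuclease, Ube2l6, the conjugating enzyme of ISG15, and Cmpk2, a nucleotide kinase. Their log2 fold changes were 0.33 ± 0.11, 0.51 ± 0.20 and 0.49 ± 0.21 (edgeR adjusted p = 0.261, 0.320 and 0.338). Per library the 35 genes had medians of -0.24, 0.40 and 0.26 in Mir, against -0.48, -0.30 and 0.49 in Scr, on the log2 scale relative to each gene's mean.

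Antigen presentation had 15 genes tested of 15, with 4 higher and 0 lower at an unadjusted p under 0.05, against 6.57% and 7.93% of all genes. H2-D1, a class I heavy chain that pairs with B2m, had 2226, 3500 and 2236 counts in Mir, against 460, 600 and 1820 in Scr. All Mir libraries lay above all Scr libraries, and its log2 fold change was 1.45 ± 0.41 (edgeR adjusted p = 0.235). H2-K1, the other classical heavy chain, had 875, 1615 and 1102 counts in Mir, against 253, 286 and 979 in Scr, and overlapped through Scr 3 (1.23 ± 0.44, adjusted p = 0.285). Tap2, the partner of Tap1, had 33, 37 and 50 counts in Mir, against 2, 6 and 26 in Scr (1.81 ± 0.69, adjusted p = 0.304). Tapbp, which links the class I molecules to the transporter, completed the 4, at 0.61 ± 0.25 with an unadjusted p of 0.0456. Other genes share 29.0% of its exon bases. Class I genes differ in sequence between mouse strains, and the labels conflict on the strain. How the alleles were counted was not tested, and the values of H2-D1 and H2-K1 may depend on it. In all 4 genes, as in B2m, Scr 3 was the highest Scr library.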

How the data were processed

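RNA was measured in 6 libraries of pooled GFP-sorted cells, made with the SMART-seq v4 kit and read as 50 bp single reads, per the labels' protocols. The authors deposited whole-number read counts per gene, without normalization. HTSeq 0.11.0, HISAT2 2.1.0 and DESeq2 1.18.1, with build mm10 (GRCm38), stand in the submitters' processing notes. The sources used here give neither the annotation nor the strand setting. Lines that name no gene were left out, and 21.9 to 23.6% of listed reads were in genes.

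Symbols, positions and exon lengths came from GENCODE M21 (GRCm38). The test was edgeR 4.0.16's quasi-likelihood F test (R 4.3.3, TMM factors, filterByExpr, group as the only term), two-sided, with Benjamini-Hochberg adjustment over 16897 genes and a threshold of 0.05. CPM are TMM-scaled, and standard errors come from the F statistic. DESeq2 gave no adjusted p for Dhx58, Ifit3, Ifit3b, Mx1, Xaf1 and Parp14. Alternatives were DESeq2 1.42.0, limma-voom (limma 3.58.1), DESeq2 size factors, no filter, at least 50 counts, a replicate block and left-out libraries. Libraries of a group differed beyond sampling noise (chi-square per degree of freedom 8.23 to 28.2). Since PCR copies carried no molecular identifiers, floors cover counting error only.

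The members and lists were chosen with earlier results of these data known. Counts per library are given for members that average at least 1 CPM, have an unadjusted p under 0.05 or do not overlap between groups. Of each other list, the 3 genes of lowest p are named, with Cgas, Tmem173, Tlr3, Jak1, Tyk2, H2-D1 and H2-K1, and Tapbp was added after its values were seen. A gene that this rule also names is not reported here. Dlx6os1 matched more than 1 gene and was left out of the inhibitory neuron markers.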

Additional observations from a re-analysis of the deposited data

How the results depend on the processing

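The 0 calls among the members at an adjusted p of 0.05 held under every alternative run. Over all genes, edgeR called 0 higher and 1 lower, DESeq2 247 and 333, no filter on low counts 15 and 16, limma-voom 0 and 0, and the replicate block 0 and 0, and leave-outs gave 0 to 10 higher and 0 to 19 lower. At an unadjusted p under 0.05, leave-outs gave 643 to 1454 genes higher and 772 to 1980 lower. Among members that count was 0 higher and 1 lower. It was 1 higher in limma-voom, 2 higher (Irf1 and B2m) and 2 lower (Ifnar2 and Oas2) with no filter, 3 and 2 with the replicate block, and 0 to 15 and 0 to 3 in leave-outs. The member median was 0.0090 to 0.85 in leave-outs and 0.29 with the replicate block. Of the pathway genes, DESeq2 called 2, Nlrx1 and Ifngr2, and 6 to 23 had an unadjusted p under 0.05 in leave-outs, against 12. Same-numbered libraries deviated with correlations of 0.22, -0.15 and -0.10, and not every library correlated best with its own number. The main fit therefore did not treat the numbers as pairs, although these correlations cannot show how the pools were prepared.

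Several values turned sign, and not all of them were close to 0 in the main fit. Irf3 was 0.014 with no filter, 0.00088 with at least 50 counts and 0.0068 in limma-voom. In limma-voom Irf9 was 0.074 and Ifit3b 0.21, and with the replicate block they were 0.11 and 0.14. In leave-outs the log2 fold change ran from -0.15 to 0.97 for Ddx58, -0.24 to 0.80 for Trim25, -0.0075 to 0.58 for Mavs, -0.089 to 0.17 for Tbk1, -0.064 to 0.044 for Irf3, -0.043 to 0.21 for Ifnar1, -0.29 to 0.065 for Stat2, -0.38 to 0.66 for Irf9, -0.41 to 1.08 for Isg15 and -0.25 to 1.56 for Ifit1. It ran from -0.52 to 0.40 for Ifit3b, -0.030 to 0.48 for Ifi44, -0.16 to 1.09 for Oas1a, -0.20 to 0.90 for Rtp4, -0.32 to 0.99 for Bst2, -0.12 to 0.043 for Ifitm2, -0.45 to 0.44 for Ifitm3, -0.084 to 0.96 for Eif2ak2 and -0.77 to 0.26 for Xaf1. For Parp9 it was -0.17 to 0.74, for Parp14 -0.89 to 0.26, for Psme1 -0.11 to 0.076 and for Jak1 -0.080 to 0.13. For Ddx58, Trim25, Irf9, Isg15 and Ifit1 the upper end was the fit without Scr 3. Leaving out Scr 3, the highest Scr library of these genes, must raise their fold changes. The cause of the other shifts was not tested.

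With 3 pools a group, differences smaller than the spread of the induced genes were not detectable. Low counts limit Dhx58, Zbp1, Oas2, Mx1, Parp14, Ifit3b and Cgas.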

Other observations

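Both patterns here were picked after the data had been seen. Ifnar2, Il10rb, Ifnar1 and Ifngr2 lie side by side on the plus strand of chromosome 16 (GRCm38), from 91372783, the start of Ifnar2, to 91565623, the end of Ifngr2. In Ifnar2, Il10rb and Ifngr2 every Mir library lay below every Scr library, while the Mir libraries of Ifnar1, which stands between Il10rb and Ifngr2, lay within the Scr range. Scr 2 was the highest library of all 4 genes. It also had the highest sums of endothelial (263.8 CPM), inhibitory neuron (910 CPM), pericyte (136 CPM) and erythroid markers (858 CPM), and their part in these genes was not tested. Without Scr 2 the log2 fold changes were -0.27 for Ifnar2, -0.71 for Il10rb and -0.58 for Ifngr2. Gm21970 shares 9.46% of the exon bases of Ifnar2 and 14.9% of those of Il10rb.

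H2-T23, a nonclassical class I gene, did not follow H2-D1, H2-K1 and B2m. It had 140, 12 and 15 counts in Mir, against 135, 45 and 9 in Scr, so that Mir 1 and Scr 1, low for most induced genes, were its highest libraries. The 3 Mir libraries differed 11.6-fold and the 3 Scr libraries 19.4-fold (log2 fold change -0.41 ± 1.14, edgeR adjusted p = 0.904). Class I genes differ between mouse strains, the labels conflict on the strain, and how the alleles were counted was not tested. The counts and folds of H2-T23 may depend on it.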
